A study of Mus musculus with 6 samples.

Results

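The nuclear-encoded subunits of the oxidative phosphorylation (OXPHOS) machinery were examined in B16F10 cells, a mouse melanoma line, after depletion of OSGEP. OSGEP is the enzyme within KEOPS, the complex behind the t6A modification of tRNAs that decode ANN codons, the codons that begin with A. Genes were chosen by symbol alone, as the names of the NADH dehydrogenase, succinate dehydrogenase, cytochrome bc1, cytochrome c oxidase and ATP synthase families without pseudogene (-ps) symbols. The rule found 98 of the 55487 genes in the table, with 49 in complex I, 4 in complex II, 8 in complex III, 19 in complex IV and 18 in complex V. Of these, 88 passed the filter on low counts and were tested, against 12669 genes of the whole table.

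All cells were B16F10. Control cells (shCtr, genotype label WT) received a scramble shRNA, and shOSGEP cells (genotype label KD OSGEP) received the single hairpin OSGEP#2, both by lentiviral infection. PolyA RNA of 3 infections per group was sequenced. The labels do not give the time after infection. Depth ran from 18915587 to 29487384 counts per library. Osgep itself was measured at 20.6, 58.6 and 21.8 CPM (counts scaled to library size, here after TMM scaling) in shCtr replicates 1, 2 and 3, against 4.28, 0.542 and 5.52 CPM in the same replicates of shOSGEP, without overlap between the groups. All 7 melanocyte markers examined were expressed in every library, whereas the summed level of the 3 endothelial markers did not exceed 0.31 CPM and that of the 6 immune markers 7.47 CPM. The summed melanocyte markers stood at 17710, 29600 and 17040 CPM in shCtr, against 18080, 3551 and 15390 CPM in shOSGEP. By this sum only shOSGEP replicate 2 was low, and each marker other than Mitf was lowest there. Mitf stood at 339, 29.4 and 244 CPM in shCtr, against 331, 30.6 and 202 CPM in shOSGEP, so it was low in both libraries numbered 2. In shCtr replicate 2, Pmel alone made up 13300 CPM of the sum. The part of either library in the results was not tested.

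Complexes I and II pass electrons from NADH and succinate to coenzyme Q, complex III hands them to cytochrome c and complex IV to oxygen. Complexes I, III and IV pump protons across the inner mitochondrial membrane, and complex V, the ATP synthase, uses that gradient to make ATP. Most subunits are encoded in the nucleus and imported, while a small set of core proteins of every complex but complex II is encoded by mitochondrial DNA, so the nuclear and the mitochondrial supply must be matched. These data measure transcripts only, and fewer cells and less RNA per cell cannot be told apart in them.

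Across the 5 complexes, most transcripts differed by less than the spread between libraries. With the threshold used in the study (a Log2FC beyond 0.5 in either direction and an unadjusted p under 0.05, here by edgeR's quasi-likelihood test), 1 of the 88 tested members passed, Cox6a2, and none was lower. Over all genes tested the same threshold was passed by 2.02%, with 1.59% higher and 0.426% lower. No member had an adjusted p under 0.05 in edgeR, where the adjusted p of every member was 0.9997, in DESeq2 or in limma-voom with sample quality weights. Among all genes edgeR gave 0 at that level, DESeq2 14 (0.111%) and limma-voom 3 (0.0237%). At an unadjusted p under 0.05, edgeR gave 1 member, DESeq2 0 and limma-voom 1. DESeq2 gave Cox6a2 no p, so its counts of members leave that gene out. The threshold of the study was passed by no member in DESeq2 (2.92% of all genes), and by Cox6a2 alone in limma-voom (4.42%), with the replicate number as a block (2.94%), with offsets for GC content and transcript length (5.4%) and without both libraries numbered 2 (1.51%).

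The Log2FC of the 88 members had a median of -0.21, beside -0.03 for all genes tested, and 60 members lay below 0 against 28 above. Over all genes, 52.7% lay below 0. The groups did not overlap for 3 of the 88 members, which is 3.41%, against 6.36% of all genes tested (3.49% higher and 2.87% lower). Those were Cox6a2, higher in shOSGEP, and Sdhd and Ndufaf7, lower in shOSGEP. By complex, the median Log2FC was -0.17 in complex I, -0.44 in complex II, -0.33 in complex III, -0.18 in complex IV and -0.19 in complex V.

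This direction depended on 2 libraries and on the fit. In shCtr replicate 2 and in shOSGEP replicate 2 the OXPHOS transcripts stood high, with a median 0.94 and 0.68 above each gene's own mean on the log2 scale, and in the other 4 libraries they stood between 0.19 and 0.66 below it. Together the members took 1.35, 2.13 and 1.42% of all counts in shCtr replicates 1, 2 and 3 and 1.17, 2.37 and 1.48% in shOSGEP, so the libraries numbered 2 were highest in both groups and the groups overlapped. Cytosolic ribosomal protein genes, which also give short and abundant mRNAs, took 6.63, 12.5 and 6.63% in shCtr and 5.59, 12.5 and 7.33% in shOSGEP, in the same order of libraries, and whether the 2 sets share a cause was not tested. Without shCtr replicate 2 the median Log2FC of the members was 0.40 and 74 of 88 lay above 0. Without shOSGEP replicate 2 it was -0.60 and 81 of 88 lay below 0. Without both it was -0.06, with 53 of 88 below 0. In limma-voom with sample quality weights, on all 6 libraries, the median was 0.07 and 56 of 88 lay above 0.

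**Figure D1:**
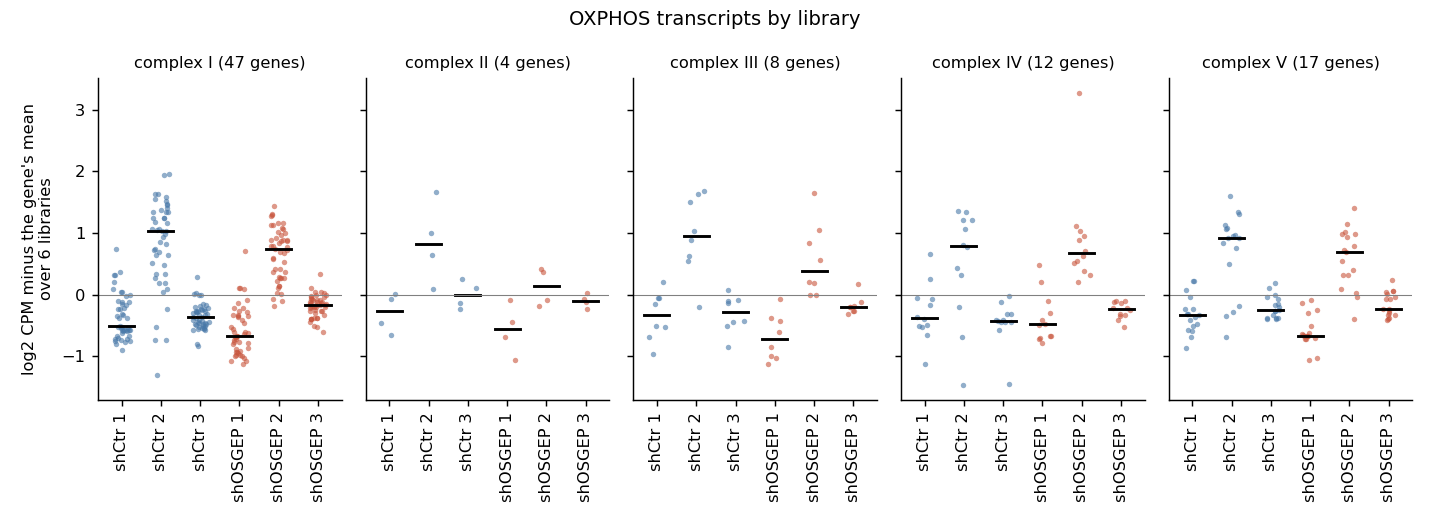
Deviation of each tested OXPHOS transcript from its own mean over the 6 libraries (log2 CPM with 0.5 CPM added), 1 point per gene and a black bar at the median, with shCtr in blue and shOSGEP in red. The libraries numbered 2 lie above the others in both groups and in every complex, with a median over all members of 0.94 in shCtr replicate 2 and 0.68 in shOSGEP replicate 2.

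Same-numbered libraries deviated together in replicates 1 and 2, and only weakly in replicate 3 (correlation 0.196). There shCtr replicate 3 went more with shOSGEP replicate 1 (0.491). The difference was also read within each replicate number, with this limit on the pairs of replicate 3. The median log2 ratio of shOSGEP to shCtr over the members was -0.26 in replicate 1, -0.36 in replicate 2 and 0.13 in replicate 3, beside -0.03, 0.11 and -0.01 for all genes tested. These ratios carry the TMM scaling, which multiplied library size by 0.69 for shCtr replicate 2 and by 1.07 for shOSGEP replicate 2. Every CPM of the former was thereby raised. Summed over the members, CPM fell from 30840 in shCtr replicate 2 to 22220 in shOSGEP replicate 2. Their share of counts rose instead, from 2.13 to 2.37%, so the direction in replicate 2 depended on the scaling. In replicate 1, 83 of the 88 members were lower in shOSGEP, against 53.3% of all genes. In replicate 2, 56 were lower, against 47.6% of all genes, and in replicate 3 only 26 were lower, against 51.7%. Of 82 tested cytosolic ribosomal protein genes, 82 were lower in replicate 1 and 24 in replicate 3. All genes tested with transcripts under 1000 bases had a median of -0.17 in replicate 1 and 0.13 in replicate 3. The shift of the members was thus not particular to them. A lower value in all 3 pairs was found for 13 members, or 14.8%, and a higher one for 3, or 3.41%, where all genes gave 17.2% and 17.6%. The near-uniform shift of replicate 1 was therefore small and was not repeated in replicate 3.

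**Figure D2:**
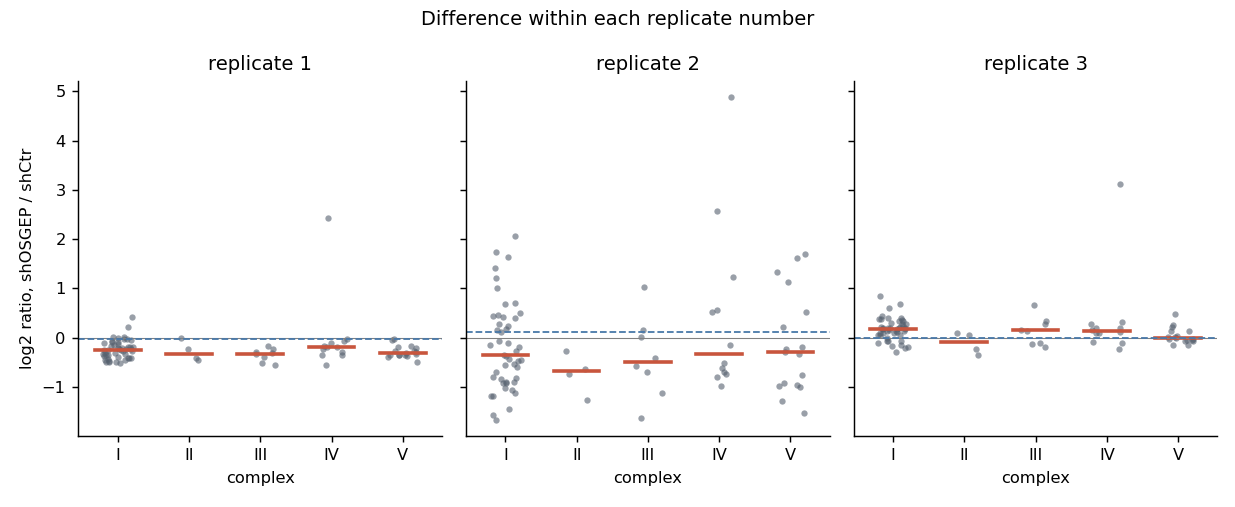
Log2 ratio of shOSGEP to shCtr for each tested OXPHOS transcript within replicates 1, 2 and 3, by complex, with the complex median in red and the median of all genes tested as a dashed blue line. The members are tightly grouped in replicates 1 and 3 and widely spread in replicate 2, and the single high point in complex IV is Cox6a2.

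Complex I was represented by 47 tested genes. Its 7 core subunits, which carry the flavin and the iron-sulphur clusters, had a median Log2FC of -0.64, and 6 of them lay below 0, yet none passed the threshold. Ndufs8, a subunit with a pair of iron-sulphur clusters, was measured at 54.1, 332 and 69.0 CPM in shCtr, against 40.5, 105 and 78.1 CPM in shOSGEP. The single value of shCtr replicate 2 set the difference, and the remaining 5 libraries overlapped. Its Log2FC was -1.03 (SE 0.74) with an unadjusted edgeR p of 0.203 and an adjusted p of 0.9997, and it ran from -1.42 to 0.27 when single libraries or replicate numbers were left out.

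Ndufv1, the subunit that binds NADH and the flavin, stood at 82.9, 406 and 123 CPM in shCtr, against 74.7, 148 and 149 CPM in shOSGEP (Log2FC -0.72, SE 0.64). It repeats the pattern of Ndufs8, with 1 high control library and overlap elsewhere. Ndufs7 and Ndufs3, 2 further subunits of the arm that leads to coenzyme Q, had Log2FCs of -0.64 (SE 0.71) and -0.52 (SE 0.61).

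The largest core subunit, Ndufs1, did not share that pattern. It was measured at 150, 90.9 and 159 CPM in shCtr, against 141, 124 and 130 CPM in shOSGEP, so shCtr replicate 2 was its lowest library (Log2FC -0.01, SE 0.39). Ndufv2, another iron-sulphur subunit, stood at 115, 144 and 112 CPM in shCtr, against 99.5, 237 and 98.3 CPM in shOSGEP (Log2FC 0.23, SE 0.47). Core subunits of the same complex thus differed in sign without any of them passing the test.

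The 29 accessory subunits of complex I, which surround the core, had a median Log2FC of -0.17, with 19 below 0 and 10 above, and a range from -0.61 to 0.72. At the upper end Ndufs4, needed for a stable NADH-binding module, was measured at 79.2, 37.8 and 45.7 CPM in shCtr, against 67.4, 158 and 43.4 CPM in shOSGEP. It was low in shCtr replicate 2, high in shOSGEP replicate 2 and lower in shOSGEP within replicates 1 and 3. Ndufb8, at the lower end, had a Log2FC of -0.61 (SE 0.64).

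Of the 8 assembly factors of complex I that carry an Ndufaf name, 6 lay below 0. Ndufaf7, a methyltransferase that acts in early assembly, was measured at 30.5, 58.8 and 33.2 CPM in shCtr, against 24.6, 28.8 and 30.0 CPM in shOSGEP. All 3 shOSGEP libraries were below all 3 shCtr libraries, though the highest of the former and the lowest of the latter were 30.0 and 30.5 CPM. The Log2FC was -0.55 (SE 0.43) and the unadjusted edgeR p was 0.231. The exact permutation test gave its smallest possible two-sided p of 0.1, as it must for any gene without overlap, so it adds nothing here.

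Ndufa4 and Ndufa4l2 carry complex I names but are counted with complex IV by later work. Ndufa4 was abundant and stood at 545, 252 and 333 CPM in shCtr, against 452, 847 and 319 CPM in shOSGEP (Log2FC 0.52, SE 0.52). It was higher in shOSGEP in replicate 2 only. Ndufa4l2, its hypoxia-induced paralogue, was near the limit of the assay, between 0.467 and 1.87 CPM in all libraries (Log2FC -0.08, SE 0.67). Of 3 members that are copies of complex I subunit genes, Ndufa11b had no count and Ndufs6b had at most 3 counts in any library. The third, Ndufb4c, cannot be told apart from Ndufb4: its whole transcript of 390 bases is contained in that of Ndufb4, longer than the reads of 100 bases, so its 9.73 to 41.5 CPM are an uncertain share of the reads of both.

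Complex II was the only complex whose tested members all lay below 0, which is 4 genes. Sdhd, the small membrane anchor that helps to form the coenzyme Q site, was measured at 203, 313 and 216 CPM in shCtr, against 148, 189 and 170 CPM in shOSGEP. Every shOSGEP library was below every shCtr library, and shOSGEP was lower within each replicate number, by 0.46, 0.73 and 0.34 on the log2 scale. Group means were 244 ± 60.5 CPM in shCtr and 169 ± 20.7 CPM in shOSGEP (SD over 3 libraries). The Log2FC was -0.53 (SE 0.39), with an unadjusted edgeR p of 0.206 and an adjusted p of 0.9997. With offsets for GC content and length together with the replicate block it passed the threshold, at -0.56 and an unadjusted edgeR p of 0.0415, in a setting where 6.75% of all genes passed.

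Sdha, the flavoprotein that oxidises succinate, was among the most even members: 245, 275 and 309 CPM in shCtr and 243, 227 and 262 CPM in shOSGEP (Log2FC -0.18, SE 0.36). The groups overlapped, although shOSGEP was lower in all 3 pairs. Sdhb, the iron-sulphur subunit, stood at 176, 879 and 236 CPM in shCtr, against 131, 369 and 253 CPM in shOSGEP (Log2FC -0.78, SE 0.70), with the libraries numbered 2 highest in both groups. Sdhc, the second membrane anchor, had a Log2FC of -0.35 (SE 0.52).

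In complex III, 6 of 8 members lay below 0. Uqcrfs1, the Rieske iron-sulphur protein and the catalytic subunit found here, was measured at 89.4, 136 and 97.4 CPM in shCtr, against 68.4, 92.0 and 85.5 CPM in shOSGEP. It was lower in shOSGEP in every pair, but shOSGEP replicate 2 exceeded shCtr replicate 1 (Log2FC -0.39, SE 0.38). Uqcrh, the hinge protein that helps cytochrome c to dock, behaved alike, with 193, 371 and 183 CPM in shCtr and 133, 231 and 167 CPM in shOSGEP (Log2FC -0.50, SE 0.45). Uqcrc1, a large scaffold subunit, stood at 206, 1031 and 310 CPM in shCtr, against 166, 331 and 374 CPM in shOSGEP (Log2FC -0.83, SE 0.67), and its sign turned when shCtr replicate 2 was left out, where the highest value over the left-out libraries was 0.17.

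The promoters of Sdhd, Ndufaf7 and Uqcrh are shown because these are members that were lower in shOSGEP in all 3 pairs, with that of Cox6a1 for comparison with its paralogue below. NRF1 and the ETS factor GABP are regulators long known to bind near OXPHOS genes. Each line gives the 250 bases before the first listed start of the gene, 5′ to 3′ on its own strand (RefSeq, GRCm38.p6). Capitals mark the letters CGCANGCG (NRF1-type) and CCGGAAG (ETS-type), searched on both strands.
Sdhd, chr9:50603850-50604099, minus strand: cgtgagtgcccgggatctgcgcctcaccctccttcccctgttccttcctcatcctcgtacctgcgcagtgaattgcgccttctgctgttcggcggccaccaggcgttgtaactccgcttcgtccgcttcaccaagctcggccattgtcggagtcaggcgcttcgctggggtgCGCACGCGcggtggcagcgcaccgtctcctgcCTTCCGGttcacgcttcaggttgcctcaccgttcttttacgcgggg
Ndufaf7, chr17:78936885-78937134, plus strand: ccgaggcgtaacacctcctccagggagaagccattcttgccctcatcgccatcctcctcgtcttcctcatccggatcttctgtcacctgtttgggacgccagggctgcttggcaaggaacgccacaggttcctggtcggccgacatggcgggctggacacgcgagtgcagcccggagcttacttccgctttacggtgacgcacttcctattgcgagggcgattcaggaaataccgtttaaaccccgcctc
Uqcrh, chr4:116075071-116075320, minus strand: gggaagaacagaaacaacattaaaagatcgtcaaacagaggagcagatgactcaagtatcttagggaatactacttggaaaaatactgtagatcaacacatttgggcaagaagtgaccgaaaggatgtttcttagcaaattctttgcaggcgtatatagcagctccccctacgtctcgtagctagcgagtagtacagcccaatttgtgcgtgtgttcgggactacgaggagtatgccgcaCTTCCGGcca
Cox6a1, chr5:115348959-115349208, minus strand: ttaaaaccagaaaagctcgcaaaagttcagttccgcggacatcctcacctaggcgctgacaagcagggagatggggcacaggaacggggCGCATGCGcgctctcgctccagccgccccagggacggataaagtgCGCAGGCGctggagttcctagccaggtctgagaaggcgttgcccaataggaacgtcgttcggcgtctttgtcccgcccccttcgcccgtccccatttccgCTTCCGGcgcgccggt

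The Sdhd window held both kinds of letters, NRF1-type letters from 78 to 71 bases and ETS-type letters from 46 to 40 bases before the start. Cox6a1 held NRF1-type letters at 2 places and ETS-type letters 16 to 10 bases before the start, Uqcrh only ETS-type letters, and Ndufaf7 neither. Windows were found for 76 of the 97 member symbols. Of these 76 genes, 21 (27.6%) held the NRF1-type letters, against 16.8% of the genes tested and 7.65% of all promoters, and 14 (18.4%) held the ETS-type letters, against 16.6% and 7.83%. The letters AAGGTCA of the ERR receptors were found in 5 members (6.58%, against 3.37% of the genes tested), and AAGATGG of YY1 in 1 (1.32%, against 5.29%). TGATGNAA, the element read by ATF4 and CHOP, was in no member window, against 2.33% of the genes tested. Members with NRF1-type letters had a median Log2FC of -0.17 (21 genes) and those without -0.28 (51 genes), and with ETS-type letters the medians were -0.31 and -0.21. Members with and without these letters thus had medians on the same side of 0.

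In complex IV, Cox6a2 was the one member past the threshold. It encodes the heart and skeletal muscle form of subunit VIa, whose widely expressed form is Cox6a1. Cox6a2 (ENSMUSG00000030785) is a protein-coding gene at chr7:128205435-128206387, minus strand, in GRCm38. It had 3, 7 and 0 counts in shCtr and 23, 327 and 16 counts in shOSGEP, or 0.128, 0.344 and 0 CPM and 1.07, 12.7 and 0.679 CPM. Every shOSGEP library was above every shCtr library, and shOSGEP replicate 2, the library with the lowest Osgep, was far above all others. That library also had the lowest summed melanocyte markers, 3551 CPM, and whether this bears on Cox6a2 was not tested.

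The Log2FC of Cox6a2 was 4.91 (SE 1.49) with an unadjusted edgeR p of 0.0104 and an adjusted p of 0.9997. From summed counts scaled for library size, shOSGEP exceeded shCtr 33.9 times (95% interval 18.2 to 71.2, counting error only), and 13.04 times (4.15 to 66.0) without both libraries numbered 2. Of the 366 summed shOSGEP counts, 327 came from replicate 2, and the intervals leave out the spread between libraries. The gene passed the filter on low counts only through its shOSGEP libraries. The call was lost without shOSGEP replicate 2 (Log2FC 2.47, unadjusted edgeR p of 0.0754). DESeq2 gave the gene a Log2FC of 4.92 but no p, so there it neither passed nor failed the threshold. Its level remained low: per kilobase of transcript, the shOSGEP mean was 7.1 CPM for Cox6a2, against 298 CPM for Cox6a1.

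The coding sequences of both forms are shown because reads are assigned to the 2 genes by sequence. Cox6a2 is given whole, over 291 bases, and Cox6a1 from base 46 to base 336, its end (GENCODE M21). Capitals mark the longest run that both share, of 12 bases.
Cox6a2: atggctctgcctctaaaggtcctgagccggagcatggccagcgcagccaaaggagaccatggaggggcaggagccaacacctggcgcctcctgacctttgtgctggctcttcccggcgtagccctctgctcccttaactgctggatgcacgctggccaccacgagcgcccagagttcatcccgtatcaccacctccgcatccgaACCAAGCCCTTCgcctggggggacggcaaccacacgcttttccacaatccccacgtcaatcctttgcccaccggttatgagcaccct
Cox6a1: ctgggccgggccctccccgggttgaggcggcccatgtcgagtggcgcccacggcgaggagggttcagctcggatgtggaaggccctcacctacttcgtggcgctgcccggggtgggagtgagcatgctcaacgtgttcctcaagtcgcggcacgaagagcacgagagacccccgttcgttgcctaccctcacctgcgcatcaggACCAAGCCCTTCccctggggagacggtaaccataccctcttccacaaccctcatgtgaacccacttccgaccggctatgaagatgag

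The coding sequences were 56.2% identical over their alignment, and no run shared by the 2 transcripts was longer than 12 bases, with reads of 100 bases. Cox6a1 itself was measured at 107, 430 and 125 CPM in shCtr, against 106, 248 and 157 CPM in shOSGEP (Log2FC -0.38, SE 0.63). Itgad, whose span holds Cox6a2 on the opposite strand, had no count in any library.

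The other tissue-restricted forms of complex IV were silent or nearly so. Cox8b, Cox8c, Cox7b2 and Cox6b2 had no count in any library, and Cox4i2 had at most 3. Cox6c2, listed as a processed pseudogene, had at most 3 as well, and it shares a run of 145 bases with Cox6c, longer than the reads, so that their reads cannot be fully told apart. Cox7a1, the muscle form of subunit VIIa, had 0, 3 and 1 counts in shCtr and 3, 6 and 4 in shOSGEP and was not tested. Their widely expressed partners carried the signal. Cox4i1, for one, stood at 352, 1275 and 399 CPM in shCtr, against 289, 649 and 461 CPM in shOSGEP (Log2FC -0.53, SE 0.62), while Cox7a2 (Log2FC 0.20, SE 0.49), Cox6b1 (-0.08, SE 0.51) and Cox8a (-0.35, SE 0.58) lay within their standard errors of 0.

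Cox7b and Cox7a2l show how far 2 transcripts of complex IV could part within the same libraries. Cox7b, a subunit needed for assembly, was measured at 313, 71.1 and 145 CPM in shCtr, against 276, 426 and 157 CPM in shOSGEP (Log2FC 0.70, SE 0.62). Its lowest library was shCtr replicate 2 and its highest shOSGEP replicate 2, and the other 4 lay between 145 and 313 CPM. Cox7a2l, which holds complexes III and IV together in supercomplexes, stood at 159, 376 and 165 CPM in shCtr, against 109, 224 and 142 CPM in shOSGEP, lower in every pair (Log2FC -0.56, SE 0.50). Neither passed the threshold in the main test. Cox7b passed it without shCtr replicate 1 (Log2FC 1.403, unadjusted edgeR p of 0.04997, adjusted p of 0.7379). With GC and length offsets and the replicate block, Cox7a2l and Sdhd passed it as lower in shOSGEP, and Ndufa7 and Cox6a2 as higher. In that setting 6.75% of all genes passed. In the main fit Ndufa7 had a Log2FC of 0.33 (SE 0.76) and was higher in every pair.

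In complex V all 5 subunits of F1, its head and central stalk, and all 3 genes of the c-ring, the proton-driven rotor in the membrane, lay below 0, with medians of -0.52 and -0.47. Of 5 other membrane or dimer subunits 4 lay above 0, with a median of 0.19, and of 4 tested peripheral stalk genes 2 did, with a median of 0.05. The difference between F1 and the membrane or dimer subunits was not tested, and it came from replicate 2. Within replicates 1, 2 and 3 the median log2 ratio was -0.34, -1.005 and -0.041 for F1, and -0.33, 0.52 and 0.018 for the membrane or dimer subunits, all 5 of which were lower in replicate 1. No gene of any of these passed the threshold. Atp5a1, the alpha subunit, was measured at 796, 2162 and 1130 CPM in shCtr, against 627, 749 and 1020 CPM in shOSGEP, lower in every pair but with overlap (Log2FC -0.77, SE 0.52, unadjusted edgeR p of 0.177). Atp5b, the catalytic beta subunit, stood at 1283, 3312 and 1829 CPM in shCtr, against 1070, 1651 and 1762 CPM in shOSGEP (Log2FC -0.52, SE 0.53).

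The genes Atp5g1, Atp5g2 and Atp5g3 encode the same mature c subunit. Their Log2FCs were -0.47 (SE 0.61), -0.31 (SE 0.55) and -0.50 (SE 0.51). Atp5md, a small membrane protein of ATP synthase dimers, stood at 103, 87.2 and 80.9 CPM in shCtr, against 85.9, 282 and 82.0 CPM in shOSGEP (Log2FC 0.73, SE 0.55). Only shOSGEP replicate 2 departed from the other 5 libraries. Atp5pb, subunit b of the peripheral stalk, had its lowest value in shCtr replicate 2 (107 CPM) and its highest in shOSGEP replicate 2 (332 CPM). The symbol Atp5o stands for 2 identifiers, of which the one at 195 to 569 CPM was tested (Log2FC -0.19, SE 0.52) and the other had no count.

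**Figure D3:**
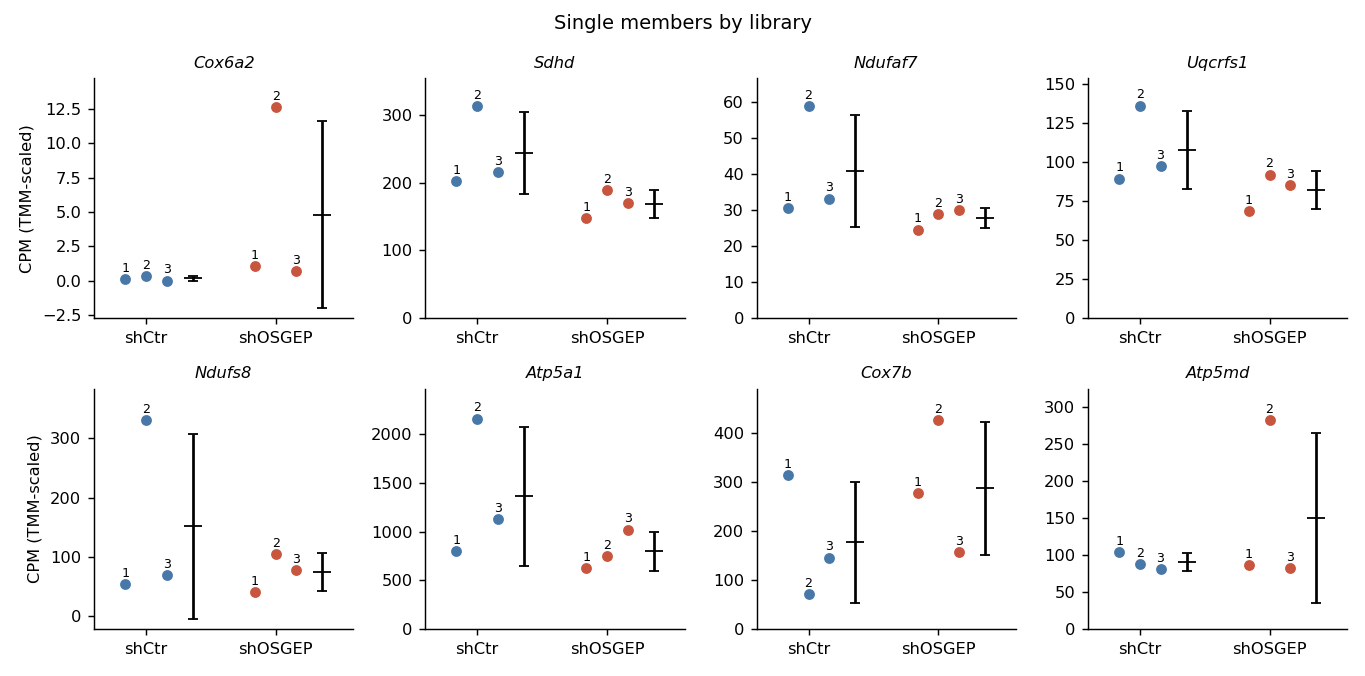
TMM-scaled CPM of 8 OXPHOS transcripts in each library, with shCtr in blue and shOSGEP in red, replicate numbers above the points and the mean with its SD (n = 3) beside each group. Cox6a2 is higher, and Sdhd and Ndufaf7 lower, in all shOSGEP libraries, while the remaining 5 overlap, with the libraries numbered 2 farthest out in most.

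The sign of a member within replicate 2 went with the base composition of its transcript. The 10 members under 45% GC had a median log2 ratio of 1.49 in replicate 2, and the 26 members above 55% GC one of -0.85. The same members gave -0.23 and -0.24 in replicate 1, and 0.001 and 0.29 in replicate 3. Across the 88 members, Spearman's rho between GC content and the replicate 2 ratio was -0.51, and it was 0.68 for replicate 3 and -0.02 for replicate 1. These describe genes that share the same libraries and carry no test. The height of shCtr replicate 2 over the other controls rose with GC content among the members (rho 0.79) as among all genes (rho 0.72), and that of shOSGEP replicate 2 fell with transcript length (rho -0.56 and -0.53). OXPHOS transcripts were short, with a median of 760.5 bases against 2738 for all genes tested. With offsets for GC content and length the median Log2FC of the members was -0.06, with -0.03 in complex I, -0.47 in complex II, -0.29 in complex III, 0.024 in complex IV and -0.03 in complex V, so the sign of complex IV turned. The part of composition in any single difference was not tested.

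**Figure D4:**
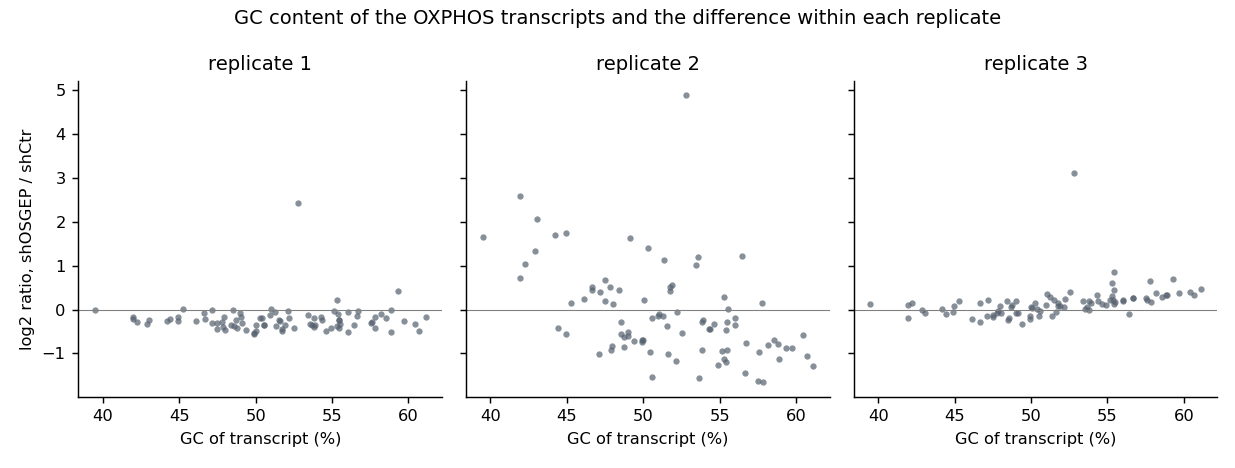
Log2 ratio of shOSGEP to shCtr against the GC content of the transcript for the 88 tested OXPHOS genes, in replicates 1, 2 and 3. In replicate 2 the ratio falls with GC content (rho -0.51), in replicate 3 it rises, over a smaller range of ratios (rho 0.68), and in replicate 1 it is flat (rho -0.02).

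As t6A acts in the decoding of ANN codons, their share was computed for each coding sequence. ANN codons made up a median of 27.0% of the codons of the members (93 genes) and 27.0% of those of all genes tested. Complex II had the lowest median share, at 22.3%, and complex V the highest, at 29.6%. Among the members, rho between ANN share and Log2FC was 0.43 with all libraries, and within replicates 1, 2 and 3 it was 0.03, 0.43 and -0.25, so its sign was not shared by the replicates. Over all genes tested it was 0.26 with all libraries and -0.02, 0.40 and -0.22 within the replicates, so the pattern was not particular to the members.

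The proteins that assemble, feed and control the complexes were read from 6 lists. None of their 101 tested genes passed the threshold in the main edgeR test, nor an unadjusted p under 0.05. The groups did not overlap for 3 of the 101, or 2.97%, against 6.36% of all genes tested. Those were Cox15, higher, and Nrf1 and Slc25a5, lower. Of 39 tested assembly factors outside the naming rule, 20 lay above 0 and 19 below (median Log2FC 0.04). Lyrm7, a chaperone of the Rieske protein, was measured at 2.89, 2.26 and 1.75 CPM in shCtr, against 4.001, 8.84 and 2.84 CPM in shOSGEP, higher in every pair (Log2FC 1.18, SE 0.60). It passed the threshold in limma-voom (0.92, unadjusted p of 0.0425, adjusted p of 0.9995), where 4.42% of all genes passed. Sdhaf3, which helps to mature Sdhb, had a Log2FC of 1.19 (SE 0.73). It passed without shCtr replicate 1 (2.06, unadjusted edgeR p of 0.0243, adjusted p of 0.7379) and without both libraries numbered 1 (2.05, unadjusted edgeR p of 0.0448, adjusted p of 0.9997). Cox15, which makes the haem A of complex IV, stood at 43.4, 22.9 and 45.2 CPM in shCtr, against 50.8, 54.4 and 46.7 CPM in shOSGEP (Log2FC 0.45, SE 0.42).

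Of 14 genes of the citric acid cycle, 10 lay below 0 (median -0.29). Idh2, the mitochondrial NADP-dependent isocitrate dehydrogenase, stood at 304, 618 and 441 CPM in shCtr, against 190, 100.3 and 320 CPM in shOSGEP (Log2FC -1.16, SE 0.54, unadjusted edgeR p of 0.0611). It passed the threshold in DESeq2 (unadjusted p of 0.0429), in limma-voom (0.0315) and with GC and length offsets and the replicate block (unadjusted edgeR p of 0.029). In these settings 2.92%, 4.42% and 6.75% of all genes passed. Idh2 also passed without shCtr replicate 1 (unadjusted edgeR p of 0.0438, adjusted p of 0.7379) and without shOSGEP replicate 3 (0.0303, adjusted p of 0.9996). Its adjusted p was 0.9997 in the main fit and not under 0.05 in any of these settings. The settings share libraries, so their calls do not count as separate evidence. Idh2 was lower in shOSGEP within each replicate, while shOSGEP replicate 3 exceeded shCtr replicate 1. Mdh2 had a Log2FC of -0.67 (SE 0.54). Of 19 electron carriers and coenzyme Q genes, 13 lay below 0 (median -0.14), with Coq8a at -0.77 (SE 0.59) and Coq10b at 0.82 (SE 0.53). Coq8a was past the threshold only without shOSGEP replicate 3 (-1.53, unadjusted edgeR p of 0.0366, adjusted p of 0.9996).

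Among 13 regulators of mitochondrial biogenesis (median -0.04), Nrf1, a transcription factor for nuclear OXPHOS genes, was measured at 50.01, 98.4 and 58.8 CPM in shCtr, against 38.0, 39.8 and 45.3 CPM in shOSGEP. The groups did not overlap (Log2FC -0.75, SE 0.42, unadjusted edgeR p of 0.111). With GC and length offsets Nrf1 passed the threshold (-0.64, unadjusted edgeR p of 0.0375, adjusted p of 0.8089), where 5.4% of all genes passed. It also passed with the replicate block added (-0.66, unadjusted edgeR p of 0.0346, adjusted p of 0.5324), where 6.75% of all genes passed. Tfb1m, a mitochondrial rRNA methyltransferase, had a Log2FC of 0.80 (SE 0.57), from shOSGEP replicate 2. Of 3 tested carriers that exchange ADP, ATP and phosphate (median -0.32), Slc25a5, an ADP/ATP translocase, stood at 751, 1232 and 893 CPM in shCtr, against 618, 636 and 741 CPM in shOSGEP, also without overlap (Log2FC -0.53, SE 0.42), and Slc25a3, the phosphate carrier, had a Log2FC of -0.32 (SE 0.44).

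The 13 mitochondrially encoded subunits, partners of the members in complexes I, III, IV and V, had a median Log2FC of 0.07, with 9 above 0 and 4 below. Within replicates 1, 2 and 3 their median log2 ratio was -0.13, 1.04 and -0.22, so in replicates 2 and 3 they lay on the other side of 0 from the nuclear members. As shares of counts, without the TMM scaling, both sets were higher in shOSGEP replicate 2 than in shCtr replicate 2. mt-Co1, the catalytic subunit of complex IV, stood at 10250, 2323 and 3644 CPM in shCtr, against 11200, 5626 and 3448 CPM in shOSGEP (Log2FC 0.32, SE 0.74). The lowest value was again that of shCtr replicate 2, where the nuclear members were highest. These transcripts are poor in GC, and mt-Nd3, the other one named by its p, had a Log2FC of -0.46 (SE 0.91), which limma-voom turned to 1.73 (unadjusted p of 0.0463).

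**Figure D5:**
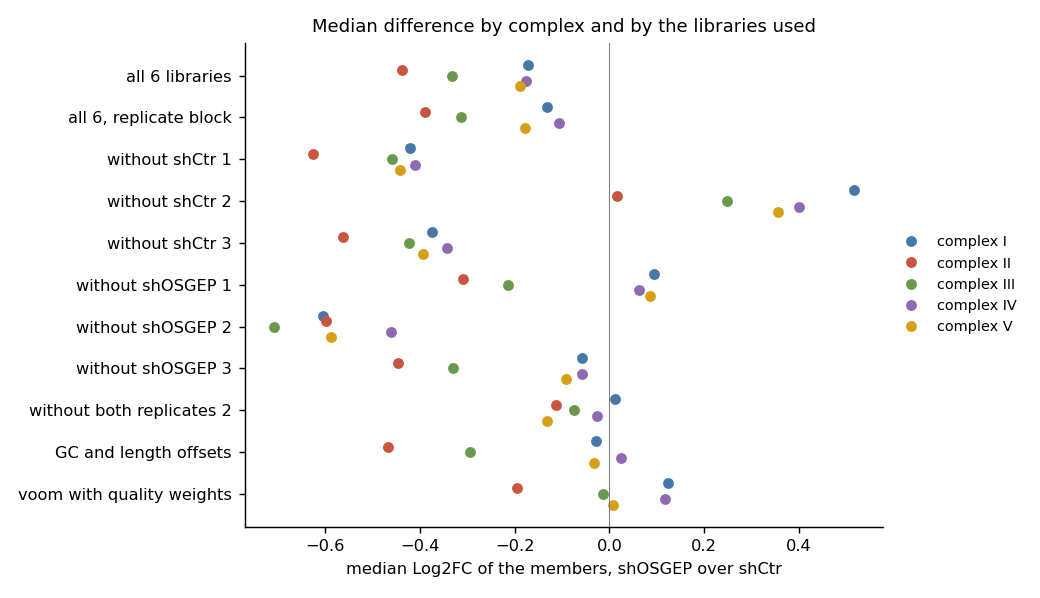
Median Log2FC of the tested members of each complex, 1 coloured point per complex, with all 6 libraries, with the replicate block, with libraries left out and with other fits. The points lie below 0 with all 6 libraries, above 0 without shCtr replicate 2 and, for complexes I, III, IV and V, lowest without shOSGEP replicate 2.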

How the data were processed

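PolyA RNA of 3 shCtr and 3 shOSGEP infections of B16F10 cells was sequenced in paired reads of 100 bases after preparation with a TruSeq kit not stated to keep the strand. The authors trimmed reads with TrimGalore, aligned them to GRCm38 with STAR 2.6.1d, quantified genes with Salmon 1.4.0 and deposited estimated counts per Ensembl gene as whole numbers, without normalisation or filter. The annotation release was not given in the sources used here. Salmon splits reads shared by near-identical genes.

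From these counts, genes were kept by filterByExpr (minimum count 10, minimum total 15), scaled by TMM and tested with edgeR 4.0.16 in R 4.3.3 (quasi-likelihood F-test, two-sided, Benjamini-Hochberg adjustment over 12669 genes), with the standard error taken from the Log2FC and its F statistic. The test was also run on simulated counts without the GC, length and library trends of these data, so that run does not cover them. For named genes an exact permutation test on log2 CPM was added, whose smallest two-sided p with 3 against 3 is 0.1. Every gene without overlap gets that value. A floor of 3 counts equals 0.116 to 0.147 CPM. Intervals and floors cover counting error only, since the reads have no molecular identifiers. Positions, lengths, GC content and coding sequences came from GENCODE M21 (GRCm38, alignment by Biopython 1.88).

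Groups and replicate numbers came from the labels. The deviations of same-numbered libraries from their group means correlated at 0.811, 0.557 and 0.196 across genes, so the numbers were taken to pair the libraries by a limit of 0.1, although the highest value between different numbers was 0.491. Named were the catalytic, carrier, complex II, c-ring and isoform genes, the 2 smallest p per complex and per list, and members whose groups did not overlap. A gene that this rule names is not reported here. Ndufs4, Ndufb8, Ndufb4c, Cox7a2l, Atp5pb, Atp5o, Ndufa7, Cox7a1, Cox15, Itgad and Ndufb1-ps were named after their values were seen. Members and lists were chosen with earlier results of these data known. Alternatives were DESeq2 1.42.0, limma-voom 3.58.1 with sample quality weights, RLE scaling, the unfiltered genes, a minimum of 10 counts everywhere, the replicate block, offsets for GC content and length (splines with 5 degrees of freedom), and leaving out libraries or replicate numbers.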

Additional observations from a re-analysis of the deposited data

How the results depend on the processing

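The replicate block left 1 member past the threshold (Cox6a2) and a median Log2FC of -0.16, with 373 genes past the threshold in all, and it changed no other call among the members. Among the genes named by role, p or lack of overlap, it turned the sign of Ndufs1 (0.0255), Ndufa4l2 (0.0646) and mt-Nd3 (0.0186). Of the counts over all genes, 256 in the reported fit, limma-voom gave 560, all genes without a filter 599, GC and length offsets 683 and offsets with the replicate block 854, and leaving out libraries gave 67 to 453. The count of members past the threshold was 0 in DESeq2 and with at least 10 counts in every library, where Cox6a2 had no p or was filtered out (DESeq2 Log2FC 4.92), 4 with offsets and the block, and 0 to 2 without single libraries or replicate numbers. limma-voom moved the median Log2FC to 0.0665 over all members, 0.12 in complex I, 0.12 in complex IV and 0.00726 in complex V. There 32 members lay below 0 and 56 above, against 60 and 28 in the reported fit. Leaving out libraries gave medians from -0.60 to 0.40 over all members, -0.61 to 0.52 in complex I, -0.63 to 0.016 in complex II, -0.71 to 0.25 in complex III, -0.46 to 0.40 in complex IV and -0.59 to 0.36 in complex V. GC and length offsets turned the median of complex IV to 0.024. The cause was not tested.

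The signs that follow are of the genes named by role, p or lack of overlap only, and other members turned as well. Signs of single Log2FCs, none past the threshold in the reported fit, turned in limma-voom for Atp5g1 (0.067), Ndufs7 (0.0494), Ndufv2 (-0.0558), Cox4i1 (0.0185), Cox8a (0.14), Cox6b1 (0.0824), Ndufa4l2 (0.43), Cox6a1 (0.20), Atp5g2 (0.0784) and mt-Nd3 (1.73), and for Ndufs1 with at least 10 counts in every library (0.0183). With GC and length offsets they turned for Ndufv2 (-0.62), Cox8a (0.0658), Ndufa4l2 (0.39), Cox6a1 (0.11), Atp5g2 (0.0514) and mt-Co1 (-0.14), and with offsets and the replicate block for Ndufv2 (-0.42), Cox8a (0.0718), Ndufa4l2 (0.34), Cox6a1 (0.11), Atp5g2 (0.0557) and mt-Co1 (-0.13). Without single libraries or replicate numbers the Log2FC ran on both sides of 0 for Atp5g1 (-0.80 to 0.41), Atp5g2 (-0.60 to 0.36), Atp5g3 (-0.78 to 0.0714), Atp5md (-0.13 to 1.12), Cox4i1 (-0.84 to 0.31), Cox6a1 (-0.71 to 0.55), Cox6b1 (-0.45 to 0.40), Cox7a2 (-0.33 to 0.42), Cox7b (-0.0815 to 1.43), Cox8a (-0.68 to 0.44), Ndufa4 (-0.19 to 1.00), Ndufa4l2 (-0.53 to 0.66), Ndufs1 (-0.23 to 0.14), Ndufs3 (-0.84 to 0.29), Ndufs7 (-1.06 to 0.46), Ndufs8 (-1.42 to 0.27), Ndufv1 (-1.14 to 0.26), Ndufv2 (-0.30 to 0.44), Sdhb (-1.15 to 0.29), Sdhc (-0.61 to 0.22), Uqcrc1 (-1.32 to 0.17), Tfb1m (-0.0186 to 1.13), mt-Co1 (-0.26 to 1.18) and mt-Nd3 (-1.14 to 0.46). RLE scaling turned no sign among these genes and moved no count of genes past the threshold. Depth limits Cox6a2, at 0 to 7 counts in shCtr, and the 10 members that were not tested.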

Other observations

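Ndufb1-ps, left out by the rule on -ps symbols, was the one such symbol with signal. It was measured at 66.8, 85.0 and 54.6 CPM in shCtr, against 61.6, 205 and 64.8 CPM in shOSGEP, so its highest library was shOSGEP replicate 2, as for Atp5md and Ndufa4, and the groups overlapped. GENCODE M21 lists it as a bidirectional promoter lncRNA, and it was not tested as a member.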
